A study of Mus musculus with 12 samples.

Results

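Genes of glycolysis, of the pyruvate branch point, of glycogen metabolism and of the pentose phosphate pathway were followed in 4T1 mammary tumours, 37 genes in all. They were chosen by name and ordered by pathway step: glucose transporters, hexokinases and the glucose-6-phosphate isomerase, subunits of phosphofructokinase-1, the PFKFB enzymes that control it, the lower glycolytic enzymes, lactate dehydrogenase with the lactate transporters, pyruvate dehydrogenase with its kinases, and enzymes of the pentose phosphate and glycogen branches. All 37 genes had values, among 22769 genes with a value, and all 37 were among the 14098 genes tested, which had a mean log2 value of at least 4 over the libraries.

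The tumours grew from 4T1 cells, an established mouse mammary carcinoma line, inoculated into Balb/c mice, and all were collected 35 days after inoculation. Mice of the stress group had been restrained for 2 hours daily on 28 days in a row, and mice of the control group were left without treatment. Whole tumours were profiled by mRNA sequencing, with 3 libraries in each group. The labels do not say that each library came from a separate mouse, so the p-values measure only the spread between these libraries, which may be technical.

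Glycolysis splits glucose into pyruvate, which tumour cells largely reduce to lactate and export even where oxygen is present. Most steps can be carried out by several isoforms encoded by separate genes, and the isoforms differ in regulation and tissue. Many of these genes, among them Slc2a1, Hk2, Pfkfb3, Pgk1, Ldha and Pdk1, are textbook targets of the hypoxia-inducible factors. The pentose phosphate pathway takes glucose-6-phosphate away from glycolysis to make NADPH and ribose, and the glycogen enzymes store it.

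Values are given on the log2 scale of the deposited table. Low values there are fractional and partly negative, no counts accompany them, and the depth behind them is unknown. The defining markers of the 4T1 carcinoma cells were present in both groups, with a mean log2 value over 12 epithelial genes of 10.45 in control and 10.43 in stress libraries. Markers of other cells were present too, and some moved with the groups. The mean log2 value of 18 neutrophil markers was 5.62 to 5.71 in control and 5.77 to 6.12 in stress libraries, and that of 16 skeletal muscle markers 8.12 to 9.35 and 7.24 to 8.38. In whole tumours, fewer cells of a type and less RNA per cell cannot be told apart.

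Most of the chosen glycolytic genes were higher in stressed tumours, by small amounts, and none passed the threshold of the test across all genes. Of the 37 genes, 30 had a higher and 7 a lower mean in stress, and the median difference was 0.20 on the log2 scale, against 50.6% higher and a median of 0.0014 over all genes tested. Between uptake and pyruvate 18 of 20 genes of the set were higher (median 0.29), while among the 17 genes past pyruvate and in the side branches 12 were higher (median 0.068). Outside the set, 5 of 9 tested genes of uptake and upper glycolysis and 1 of 5 of lower glycolysis were higher. In the set the largest differences belonged to Eno2 (0.85), Slc2a1 (0.83), Pfkfb3 (0.59) and Pdk1 (0.43), and the most negative one to Ldhb (-0.19).

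In limma's test 0 of 37 genes had an adjusted p under 0.05, where 0.0355% of all genes tested did (0.0213% higher and 0.0142% lower). At an adjusted p under 0.1 there was 1 of the 37, Pfkfb3, against 0.674% of all genes. At an unadjusted p under 0.05 there were 15 higher genes (background 8.26%) and 2 lower genes (background 9.15%). All stress libraries lay above all control libraries in 14 genes (background 12.1%) and below them in 2 (background 12.3%). The count of 15 became 8 without control replicate 1 and 8 without control replicate 3, where 7.12% and 5.37% of all genes were higher at that p. It became 5 with the muscle markers as a covariate (3.94% of all genes) and 3 with the neutrophil markers as a covariate (4.53%). The neutrophil mean did not overlap between groups, so that fit cannot separate it from the group. The SE of Pfkfb3 rose from 0.074 to 0.13 with the neutrophil covariate. Slc2a1, Hk2, Gpi1, Pfkl, Pfkp, Pfkfb3, Eno2 and Pdk1, 8 genes, had an unadjusted p under 0.05 in all 6 fits that left out 1 library. The share of all genes tested that did so was not computed. The count of 14 became 10 after quantile normalization (12% of all genes) and 25 without control replicate 2 (17.8% of all genes), where leaving out a library can only add to it. The median of 0.20 became 0.11 without stress replicate 3 and 0.084 with the neutrophil covariate.

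**Figure D1:**
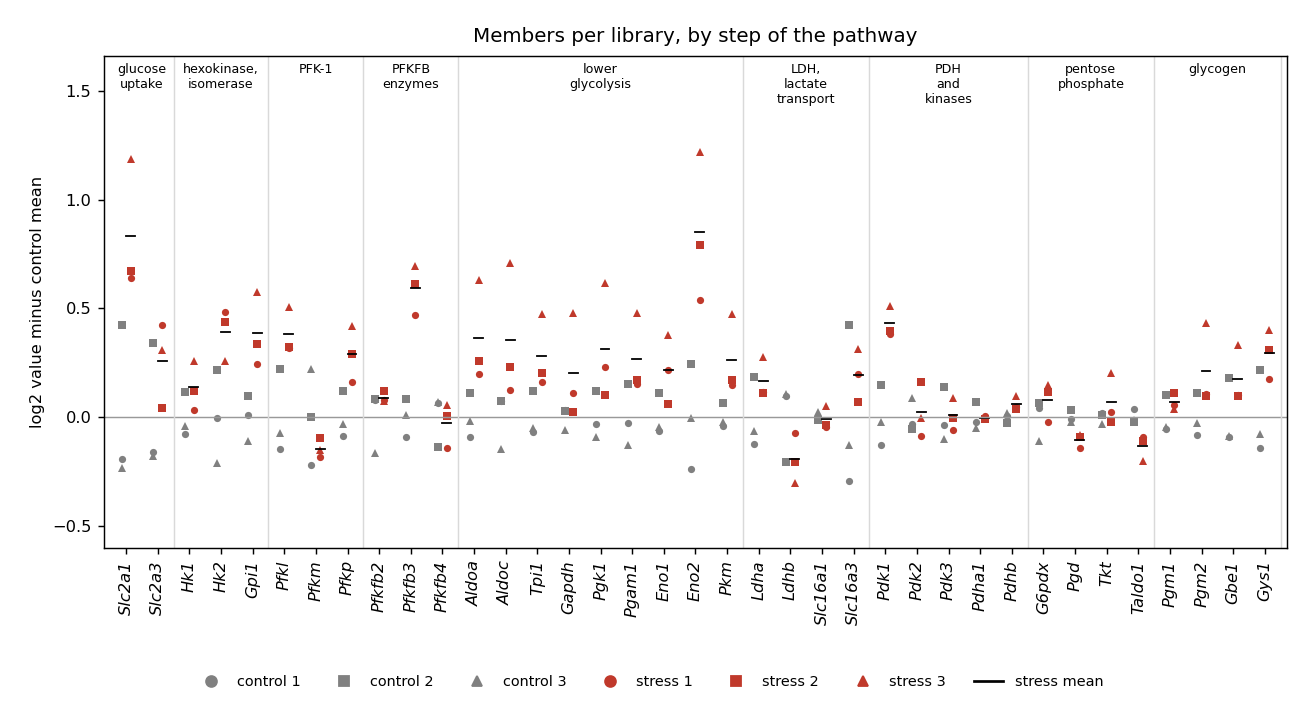
Log2 value of each gene in each library minus the mean of its 3 control libraries (y axis), with genes on the x axis by pathway step; grey symbols are control, red symbols stress libraries, and the black bar is the stress mean. The red symbols of Slc2a1, Pfkfb3, Eno2 and Pdk1 lie above all grey ones, stress replicate 3 is the highest library in 24 of 37 genes, and the pentose phosphate genes stay near 0.

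**Figure D2:**
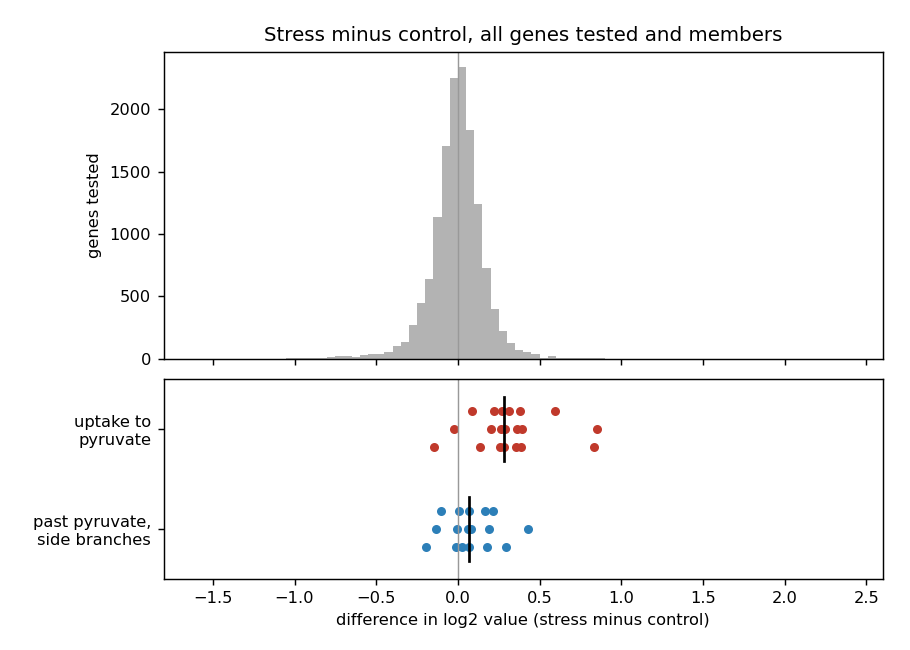
The upper panel counts all 14098 genes tested by their difference in log2 value between stress and control (x axis); the lower panel shows each of the 20 genes from uptake to pyruvate (red) and each of the 17 other genes (blue), spread vertically only for legibility, with black bars at the medians. The red median sits at 0.29 and the blue one at 0.068, while the histogram centres on 0.

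The libraries of a group were not alike for these genes. Stress replicate 3 was the highest of all 6 libraries in 24 of the 37 genes, and control replicate 2 was the highest control library in 28. Averaged over the 20 genes from uptake to pyruvate, the log2 value was 11.43, 11.62 and 11.42 in the control libraries and 11.71, 11.73 and 11.97 in the stress libraries, each in the order of replicates 1 to 3, as for all values that follow. The groups did not overlap in this mean, although control replicate 2 lay nearer to stress replicate 1 than to either other control library. Over the 17 other genes it was 10.21, 10.34 and 10.23 in control and 10.30, 10.32 and 10.39 in stress libraries, and these groups overlapped.

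Promoter sequences are shown for the 4 genes with the largest differences and for Pfkfb4 and Pdk3, whose values differed little from control although they encode isoforms of Pfkfb3 and Pdk1. Each window runs from 250 bases before to 50 bases after an annotated start, 5′ to 3′ on the gene's strand, taken from RefSeq on GRCm38.p6. Capitals mark ACGTG or GCGTG on either strand, the core letters that hypoxia-inducible factors bind; CACGTG holds 2 overlapping matches.
Pfkfb3 downstream start, chr2:11502041-11502340 (minus strand): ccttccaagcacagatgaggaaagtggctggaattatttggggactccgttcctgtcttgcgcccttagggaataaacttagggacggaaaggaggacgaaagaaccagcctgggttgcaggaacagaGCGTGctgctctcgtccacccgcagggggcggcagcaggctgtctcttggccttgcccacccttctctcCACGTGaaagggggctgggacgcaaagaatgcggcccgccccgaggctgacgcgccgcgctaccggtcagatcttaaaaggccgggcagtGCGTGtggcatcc
Pfkfb3 upstream start, chr2:11553880-11554179 (minus strand): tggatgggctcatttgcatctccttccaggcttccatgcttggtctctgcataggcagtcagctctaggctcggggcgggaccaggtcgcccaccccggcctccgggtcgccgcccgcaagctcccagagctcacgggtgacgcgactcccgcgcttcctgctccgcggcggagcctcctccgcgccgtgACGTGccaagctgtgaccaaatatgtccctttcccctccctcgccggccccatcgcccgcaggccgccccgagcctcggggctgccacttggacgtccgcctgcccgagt
Pfkfb4, chr9:108991652-108991951 (plus strand): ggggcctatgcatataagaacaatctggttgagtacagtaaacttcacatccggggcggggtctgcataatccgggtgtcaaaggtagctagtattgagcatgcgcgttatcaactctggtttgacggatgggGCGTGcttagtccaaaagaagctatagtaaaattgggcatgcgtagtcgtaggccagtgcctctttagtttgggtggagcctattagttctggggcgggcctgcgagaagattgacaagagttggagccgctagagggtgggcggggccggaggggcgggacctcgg
Pdk1 upstream start, chr2:71872974-71873273 (plus strand): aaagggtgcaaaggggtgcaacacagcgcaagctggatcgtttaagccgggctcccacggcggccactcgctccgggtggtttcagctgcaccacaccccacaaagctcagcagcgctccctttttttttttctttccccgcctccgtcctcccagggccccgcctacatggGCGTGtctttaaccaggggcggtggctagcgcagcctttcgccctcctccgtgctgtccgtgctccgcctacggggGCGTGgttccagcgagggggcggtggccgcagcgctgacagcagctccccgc
Pdk3, chrX:93832101-93832400 (minus strand): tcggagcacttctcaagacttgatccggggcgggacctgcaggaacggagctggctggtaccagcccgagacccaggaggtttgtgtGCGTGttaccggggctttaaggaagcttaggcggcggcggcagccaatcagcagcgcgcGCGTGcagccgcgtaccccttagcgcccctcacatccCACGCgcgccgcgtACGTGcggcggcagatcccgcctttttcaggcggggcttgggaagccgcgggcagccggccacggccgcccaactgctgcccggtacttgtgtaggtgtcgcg
Slc2a1, chr4:119108495-119108794 (plus strand): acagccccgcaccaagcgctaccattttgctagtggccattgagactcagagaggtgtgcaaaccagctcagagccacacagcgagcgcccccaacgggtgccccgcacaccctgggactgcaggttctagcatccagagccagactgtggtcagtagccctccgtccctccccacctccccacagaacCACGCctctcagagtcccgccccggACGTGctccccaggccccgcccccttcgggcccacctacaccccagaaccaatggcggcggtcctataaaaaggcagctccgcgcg
Eno2, chr6:124769624-124769923 (minus strand): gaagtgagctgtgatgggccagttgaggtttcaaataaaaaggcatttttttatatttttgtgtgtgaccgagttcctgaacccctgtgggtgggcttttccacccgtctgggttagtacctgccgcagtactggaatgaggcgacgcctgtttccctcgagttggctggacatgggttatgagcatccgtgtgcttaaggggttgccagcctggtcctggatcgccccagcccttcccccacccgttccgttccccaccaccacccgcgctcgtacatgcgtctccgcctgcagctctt
The windows of Pfkfb3 held 4 and 1 matches, and those of Pdk1 and Slc2a1 held 2 each, while a second annotated Pdk1 start downstream had none. The Pdk3 window, of a gene whose level hardly differed, held 4, and the Eno2 window, of the gene with the largest difference, held 0. Of 34 genes searched, 29 had a match in at least 1 window, against 46.7% of all genes. Of their 51 windows 39 had a match, against 43.8% of the 32851 windows in the table. Both motifs hold CG, and neither base content nor the number of windows per gene was matched in these comparisons. The 5 genes with no match were Eno2, Gbe1, Gpi1, Gys1 and Tpi1. A match of these letters does not show that a factor binds there.

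Glucose enters tumour cells mainly through the transporter GLUT1, encoded by Slc2a1, on chromosome 4 (119108711 to 119137983 on GRCm38). Slc2a1 stood at 11.32, 11.94 and 11.29 in control and at 12.16, 12.19 and 12.70 in stress libraries. All stress libraries lay above all control libraries, and control replicate 2 came nearest to them. The difference was 0.83 ± 0.22 (SE; 1.78-fold; limma adjusted p = 0.153). Slc2a3 encodes GLUT3, a high-affinity transporter of neurons and leukocytes. Its log2 value was 7.15, 7.65 and 7.13 in control and 7.73, 7.35 and 7.62 in stress libraries. These groups overlapped, and the difference was 0.26 ± 0.16 (SE; adjusted p = 0.447). It was 0.43 without control replicate 2 and 0.17 without control replicate 3.

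Hexokinases trap glucose in the cell as glucose-6-phosphate, and Hk2 encodes the inducible isoform of many tumours. Hk2 was at 11.21, 11.43 and 11 in control and at 11.69, 11.65 and 11.47 in stress libraries. The groups narrowly did not overlap, and the difference was 0.39 ± 0.11 (SE; 1.31-fold; adjusted p = 0.166). Unlike most genes here, Hk2 was lowest among the stress libraries in replicate 3. Hk1, the broadly expressed isoform, was at 11.89, 12.08 and 11.93 in control and at 12.004, 12.09 and 12.23 in stress libraries, which overlapped (0.14, adjusted p = 0.397). Gpi1 encodes the isomerase that makes fructose-6-phosphate. It was at 13.27, 13.35 and 13.15 in control and at 13.50, 13.59 and 13.83 in stress libraries, a difference of 0.39 ± 0.097 (SE; adjusted p = 0.143) with no overlap.

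Phosphofructokinase-1 carries out the committed step of glycolysis as a tetramer of liver, muscle and platelet subunits. The liver subunit gene Pfkl was at 12.10, 12.47 and 12.18 in control and at 12.57, 12.57 and 12.75 in stress libraries. The platelet subunit gene Pfkp was at 11.55, 11.76 and 11.61 in control and at 11.80, 11.93 and 12.06 in stress libraries. Neither overlapped, and the differences were 0.38 ± 0.10 (SE; adjusted p = 0.158) for Pfkl and 0.29 ± 0.082 (adjusted p = 0.165) for Pfkp. The muscle subunit gene Pfkm was at 9.32, 9.53 and 9.76 in control and at 9.35, 9.44 and 9.38 in stress libraries, a difference of -0.14 ± 0.11 (SE; adjusted p = 0.513). It was -0.25 without control replicate 1 and -0.034 without control replicate 3. The muscle marker mean was 8.12, 9.09 and 9.35 in control and 8.28, 8.38 and 7.24 in stress libraries. The control libraries had the same order in both, while stress replicate 3 was lowest in the muscle markers and not in Pfkm. With the muscle covariate the Pfkm difference was 0.0086; the part of muscle tissue in it was not tested further.

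The PFKFB enzymes make and break a fructose bisphosphate other than the product of phosphofructokinase-1. It is the strongest activator of phosphofructokinase-1, and the Pfkfb3 product mostly makes it. Pfkfb3, on the minus strand of chromosome 2 (11471433 to 11554077), was at 10.19, 10.37 and 10.29 in control and at 10.75, 10.90 and 10.98 in stress libraries. The gap between the groups was wider than the whole range of either group. Its difference of 0.59 ± 0.074 (SE; 1.51-fold; adjusted p = 0.0647) had the smallest p of the 37 genes, rank 16 of 14098. Without single libraries it ran from 0.54 to 0.65, and with the muscle and neutrophil covariates it was 0.59 and 0.56. Pfkfb2, the heart isoform, was at 8.55, 8.55 and 8.30 in control and at 8.55, 8.59 and 8.54 in stress libraries (0.089, adjusted p = 0.595). Pfkfb4, which is also a known hypoxia target, was at 8.70, 8.50 and 8.71 in control and at 8.49, 8.64 and 8.69 in stress libraries (-0.026, adjusted p = 0.900). Both overlapped.

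All 9 genes of lower glycolysis in the set had a higher mean in stress, from 0.20 for Gapdh to 0.85 for Eno2. In 6 of them the groups did not overlap (12.1% of all genes tested). Of 5 genes listed with lower glycolysis and tested outside the set, 1 was higher and 4 were lower (median -0.15), among them Pgam2 (-0.38) and Bpgm (-0.15). The median of the 9 genes, 0.28, became 0.062 with the neutrophil covariate and 0.16 without stress replicate 3. The 7 genes with an unadjusted p under 0.05 became 0 with the neutrophil covariate, 1 with the muscle covariate, 1 without control replicate 1 and 1 without control replicate 3. Over all genes tested 8.26% were higher at that p, and in these fits 4.53%, 3.94%, 7.12% and 5.37%. The neutrophil mean did not overlap between groups, so its fit cannot separate it from the group. Eno2 encodes the neuronal enolase, which turns phosphoglycerate into phosphoenolpyruvate. It was at 8.89, 9.37 and 9.12 in control and at 9.66, 9.92 and 10.34 in stress libraries, a difference of 0.85 ± 0.19 (SE; 1.80-fold; adjusted p = 0.120). Aldoa, the main aldolase of tumours, was at 14.02, 14.22 and 14.09 in control and at 14.31, 14.37 and 14.74 in stress libraries (0.36 ± 0.12, adjusted p = 0.203). Tpi1, the triosephosphate isomerase, was at 12.89, 13.08 and 12.91 in control and at 13.12, 13.17 and 13.44 in stress libraries (0.28 ± 0.096, adjusted p = 0.217). In each of these the groups were apart and stress replicate 3 was highest.

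The other 6 lower glycolytic genes of the set had differences from 0.20 to 0.35. Pkm, the pyruvate kinase of tumours, was 0.26 higher, Pgam1, the phosphoglycerate mutase, 0.27 and Aldoc, the brain aldolase, 0.35, all without overlap, though control replicate 2 and stress replicate 1 of Pgam1 were both at 13.38. Pgk1, the phosphoglycerate kinase, was 0.31 higher, Eno1, the ubiquitous enolase, 0.22 and Gapdh 0.20, and their groups overlapped. Adjusted p-values of these 6 genes ran from 0.236 for Pkm to 0.402 for Gapdh. Gapdh, often used as a reference gene, was at 13.52, 13.52 and 13.43 in control and at 13.60, 13.51 and 13.97 in stress libraries, with stress replicate 3 well above the other 5 libraries. Without stress replicate 3 all 9 differences were still above 0, from 0.067 for Gapdh to 0.67 for Eno2, and with the neutrophil covariate those of Gapdh (-0.12) and Pgk1 (-0.015) were below 0. Eno1 was at 13.52, 13.69 and 13.53 in control and at 13.80, 13.64 and 13.96 in stress libraries. It has a near-identical retrogene copy, Eno1b, so the split of reads between them is uncertain. The Eno1b row stood at 12.79 in control and 12.97 in stress; the sum of both gave a difference of 0.20 (adjusted p = 0.327), chosen after the data were seen.

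In all 4 genes of lactate dehydrogenase and the lactate transporters the groups overlapped, while 24.3% of all genes tested did not overlap. In limma's test 0 of the 4 had an unadjusted p under 0.05, against 17.4% of all genes. Without control replicate 2 there were 3, with differences of 0.40 for Slc16a3, 0.26 for Ldha and -0.29 for Ldhb. In that fit 7.50% of all genes were higher and 7.14% lower at that p. Slc16a3 was at a difference of 0.046 without control replicate 1. Ldha, which encodes the subunit that favours lactate formation, was at 13.78, 14.09 and 13.84 in control and at 14.02, 14.01 and 14.18 in stress libraries, a difference of 0.17 ± 0.094 (SE; adjusted p = 0.397). Ldhb, whose subunit favours pyruvate, was at 7.22, 6.92 and 7.24 in control and at 7.06, 6.92 and 6.83 in stress libraries, a difference of -0.19 ± 0.11 (SE; adjusted p = 0.389). In both genes control replicate 2 stood apart from the other control libraries, towards the side of the stress libraries. Slc16a3, the export transporter MCT4, was at 9.53, 10.24 and 9.69 in control and at 10.02, 9.89 and 10.13 in stress libraries (0.19, adjusted p = 0.601), and control replicate 2 was the highest of all. Slc16a1, the transporter MCT1, lay between 11.30 and 11.40 in all 6 libraries (-0.011 ± 0.048, adjusted p = 0.931).

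At the entry to mitochondria, pyruvate dehydrogenase kinases switch off pyruvate dehydrogenase. Pdk1, on chromosome 2 (71873224 to 71903858), was at 9.93, 10.20 and 10.03 in control and at 10.44, 10.45 and 10.57 in stress libraries. The groups were apart, and the difference of 0.43 ± 0.080 (SE; 1.35-fold; adjusted p = 0.104) ranked 114 of 14098 by p. Pdk2 (0.023, adjusted p = 0.915) and Pdk3 (0.0084, adjusted p = 0.968) encode kinases that act on the same enzyme. Pdk2 was at 7.42, 7.39 and 7.53 in control and at 7.36, 7.61 and 7.44 in stress libraries, and Pdk3 at 9.29, 9.46 and 9.23 and at 9.27, 9.32 and 9.42. The genes of the dehydrogenase itself hardly differed. Pdha1 was at 11.30, 11.39 and 11.27 in control and at 11.32, 11.31 and 11.31 in stress libraries. Pdhb was at 10.11, 10.08 and 10.12 in control and at 10.15, 10.14 and 10.20 in stress libraries, narrowly apart, with a difference of 0.059 ± 0.047 (SE; adjusted p = 0.536).

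In the pentose phosphate pathway 0 of 4 genes were higher at an unadjusted p under 0.05 and 2 were lower, where 9.15% of all genes tested were lower. Taldo1, the transaldolase that returns sugars to glycolysis, was at 10.11, 10.05 and 10.06 in control and at 9.98, 9.96 and 9.87 in stress libraries. Pgd, the phosphogluconate dehydrogenase that makes NADPH, was at 11.72, 11.76 and 11.70 in control and at 11.58, 11.64 and 11.64 in stress libraries. All stress libraries of both genes lay below all control libraries, by differences of -0.13 ± 0.053 (SE; 1.10-fold lower; adjusted p = 0.257) and -0.11 ± 0.045 (1.08-fold lower; adjusted p = 0.287). Both values were below 0 in all 14 alternatives run. The filters, the fit without a variance trend and the replicate block cannot change a difference. Neither of these genes had an unadjusted p under 0.05 in limma's test with the replicate block or with either covariate. Leaving out 1 library raised Pgd above that p in 6 of 6 fits and Taldo1 in 5 of 6. G6pdx, the entry enzyme, was at 10.43, 10.45 and 10.28 in control and at 10.36, 10.50 and 10.53 in stress libraries (0.079, adjusted p = 0.590). Tkt, the transketolase, was 0.068 higher (adjusted p = 0.628), with 12.01 to 12.06 in control and 12.24 in stress replicate 3 as its highest library.

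Of the glycogen genes in the set, all 4 had a higher mean in stress and in all 4 the groups overlapped, while 24.3% of all genes tested did not overlap. Gys1, the glycogen synthase, was at 10.29, 10.65 and 10.36 in control and at 10.61, 10.74 and 10.84 in stress libraries, a difference of 0.30 ± 0.10 (SE; adjusted p = 0.223); only control replicate 2 exceeded the lowest stress library. Gbe1, the branching enzyme, was at 8.92, 9.19 and 8.92 in control and at 9.11, 9.11 and 9.34 in stress libraries (0.18, adjusted p = 0.406). The row Pgm2 was at 10.52, 10.71 and 10.57 in control and at 10.71, 10.70 and 11.03 in stress libraries (0.21, adjusted p = 0.333), and the row Pgm1 was 0.068 higher (adjusted p = 0.590). The mouse symbols Pgm1 and Pgm2 are listed in RefSeq as older names of each other. The deposited table uses older symbols elsewhere, such as Ctgf and Cyr61, so which phosphoglucomutase each of these rows holds is not settled.

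Isoforms of one step were compared by the difference of their log2 values within each library, in which gene length cancels between groups. Of 16 pairs, 8 did not overlap between groups. Of single genes tested 24.3% did not, but that is no background for pairs, and none was computed for pairs of other genes. The pairs are not independent, since 6 of these 8 hold Pfkfb3, Pdk1 or Pfkm. An exact two-sided permutation test of 3 against 3 libraries cannot go below p = 0.1, and these 8 pairs had that p (Benjamini-Hochberg adjusted over the 16 pairs, exact p = 0.2). The ratio of Pfkfb4 to Pfkfb3 was -1.49, -1.87 and -1.58 in control and -2.26, -2.25 and -2.28 in stress libraries, lower by a difference of -0.62. The SD over libraries was 0.20 in control and 0.016 in stress. The ratio of Pdk3 to Pdk1 was -0.64, -0.74 and -0.81 in control and -1.17, -1.13 and -1.15 in stress libraries (-0.42), and that of Pdk2 to Pdk1 differed by -0.41.

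The other pairs apart involved the isoforms with the largest differences or the muscle subunit. Eno2 against Eno1 was -4.63, -4.32 and -4.41 in control and -4.13, -3.72 and -3.62 in stress libraries, a shift of 0.63. Slc2a3 against Slc2a1 shifted by -0.58, with -4.18, -4.29 and -4.15 in control and -4.43, -4.84 and -5.09 in stress libraries. Pfkfb3 against Pfkfb2 shifted by 0.50. Pfkm shifted by -0.53 against Pfkl, and Pfkp by 0.44 against Pfkm, in libraries whose muscle markers differed as given above. The 8 pairs that overlapped included Hk2 against Hk1 (0.26, exact permutation p = 0.3), Ldhb against Ldha (-0.36, exact p = 0.3) and Slc16a3 against Slc16a1 (0.20, exact p = 0.4). Aldoc against Aldoa shifted by -0.0076 and Pdk3 against Pdk2 by -0.014, so the aldolase isoforms had nearly equal differences.

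**Figure D3:**
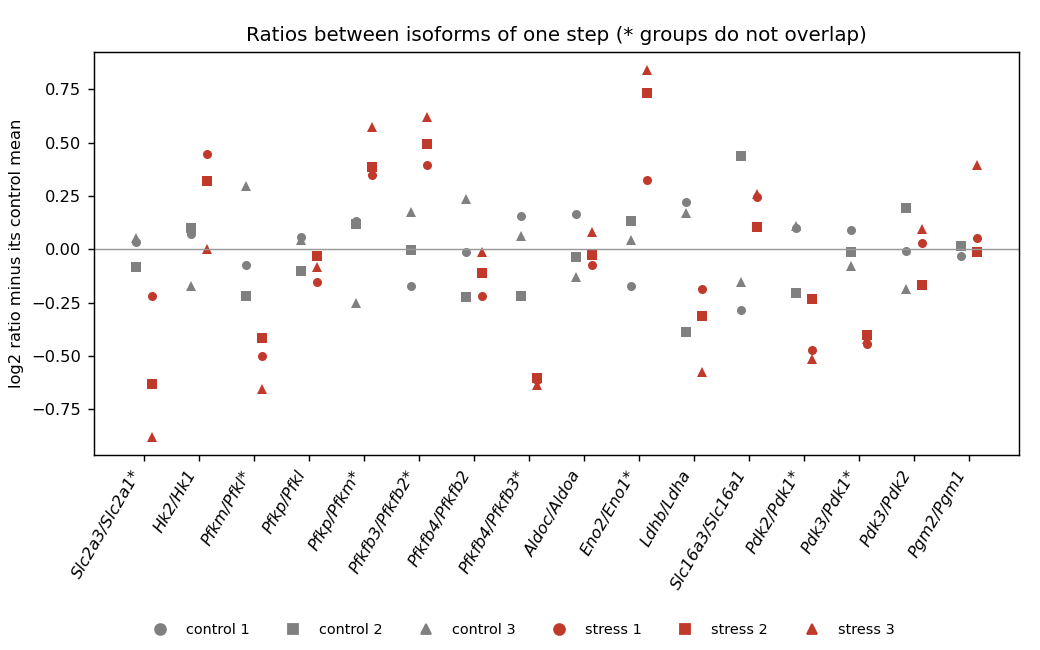
Difference of log2 values between 2 isoforms of a step, minus its mean over the 3 control libraries (y axis), for 16 pairs (x axis); grey symbols are control and red symbols stress libraries, and an asterisk marks the 8 pairs whose groups do not overlap. The 3 stress libraries of Pfkfb4/Pfkfb3 and of Pdk3/Pdk1 lie close together below the controls.

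Levels of different genes can be compared only per length, for which values as powers of 2 were divided by the median length of each gene's protein-coding transcripts in GENCODE M21. This takes the deposited values to grow with transcript length as read counts do, which no source used here states. Shares on that scale are of the genes of the set only, so other isoforms such as Slc2a9, Hk3, Pdk4 and Eno3 are left out. Slc2a1 made up 95.7% ± 0.21 (SD, n = 3) of Slc2a1 and Slc2a3 together in control and 97.1% ± 0.68 in stress libraries. Ldha made up 98.9% ± 0.24 and 99.1% ± 0.12 of Ldha and Ldhb together. Pfkfb3 made up 67.1% ± 2.2 of the 3 PFKFB genes in control and 75.0% ± 0.96 in stress libraries. Pdk1 made up 34.9% ± 1.2 and 41.8% ± 0.77 of the 3 kinases, and Pdk3 51.8% ± 1.6 and 46.2% ± 0.38. The order of these kinases rests on the division by length, since undivided Pdk1 (log2 10.05 in control) lay above Pdk3 (9.33). Eno2, despite its large difference, remained a small part of Eno1 and Eno2 together at 3.63% ± 0.37 and 5.55% ± 0.94. Undivided, the left-out Eno3 (log2 10.41 in control and 10.21 in stress) lay above Eno2 (9.12 and 9.97), and the Eno1b row was left out too. Hk1 exceeded Hk2, with 65.2% ± 2.3 and 61.0% ± 3.8. With the longest transcript in place of the median length, Pfkfb3 was at 57.1% and 66.5%, the leading gene of each step was the same, and Pfkfb4 rather than Pfkfb2 came second.

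Other genes of these pathways, 74 listed by name with results of this series known, did not show one direction. Of 61 that were tested, 9 belong to glucose uptake and upper glycolysis (5 higher) and 5 to lower glycolysis (1 higher). The others lie past pyruvate or in side branches, so the list as a whole is no match for the genes from uptake to pyruvate. Of the 61, 30 were higher and 31 lower (median -0.0087). In limma's test 5 in each direction had an unadjusted p under 0.05, and 0 had an adjusted p under 0.05. The 5 are 8.20% of the genes in either direction, near the 8.26% and 9.15% of all genes, so the genes named next are given for their values only. On the higher side, Ppp1r3b, which targets protein phosphatase to glycogen, was at 8.22, 8.55 and 8.14 in control and at 8.85, 8.65 and 9.05 in stress libraries (0.55, adjusted p = 0.141). The lysosomal glycogen-degrading enzyme Gaa was 0.17 higher, the mitochondrial carboxykinase Pck2 0.16, the ribokinase Rbks 0.16 and the phosphorylase kinase subunit Phkg2 0.15, with adjusted p-values from 0.201 to 0.281.

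On the lower side, Tigar encodes a phosphatase that lowers the activator of phosphofructokinase-1 and thereby opposes Pfkfb3. Tigar was at 7.73, 7.59 and 7.75 in control and at 7.37, 7.46 and 7.45 in stress libraries (-0.26, adjusted p = 0.153). Slc2a10, a transporter of the secretory pathway, had a difference of -0.31 (adjusted p = 0.120) and Prps1, which makes phosphoribosyl pyrophosphate, of -0.22 (adjusted p = 0.244). In these 3 genes the groups did not overlap. Pdk4 (-0.72, adjusted p = 0.267) and Eno3, the muscle enolase (-0.20, adjusted p = 0.277), overlapped between groups. Eno3 was at 10.24, 10.43 and 10.56 in control replicates 1 to 3, the order of the muscle markers.

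Values are given for 6 of 13 genes that regulate this pathway, of which Hif1a, Epas1 and Myc were chosen after their values were seen. Hif1a was at 12.35 in both groups (-0.0081, adjusted p = 0.968), and Myc at 11.76 and 11.75 (-0.0053, adjusted p = 0.981). Epas1, which encodes HIF-2alpha, had a difference of -0.34 ± 0.18 (SE; adjusted p = 0.373), with overlap. Egln3, a prolyl hydroxylase that marks HIF proteins for degradation and is itself a HIF target, was 0.58 ± 0.14 (SE) higher (adjusted p = 0.135). Max, the partner of MYC, was 0.19 higher (adjusted p = 0.178) and Arnt, the partner of HIF proteins, 0.16 (adjusted p = 0.186). The groups of these 3 genes did not overlap, as in 24.3% of all genes tested (12.1% higher). In limma's test 0 of 12 tested regulators passed an adjusted p under 0.05 (0.0355% of all genes). At an unadjusted p under 0.05 there were 3, all higher, against 17.4% of all genes in either direction and 8.26% higher.

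Marker lists of other cells moved with the glycolytic genes in part. Of 15 neutrophil markers tested, 13 were higher in stress, and Retnlg (-0.065) and Trem1 (-0.066) were lower. In 5 all stress libraries lay above all control libraries (12.1% of all genes tested), and in 10 the groups overlapped. S100a9 had the largest difference (1.21). The values of all 18 listed markers as powers of 2 summed to 2321 to 2565 in control and 2991 to 4661 in stress libraries, without overlap. Elane, Camp and Mpo were near the floor in all libraries and were not tested. Stress replicate 3, the highest library for most glycolytic genes, had the highest neutrophil mean (6.12) and the lowest muscle mean (7.24). Skeletal muscle markers summed to 6585 to 18345 in control and 3324 to 8448 in stress libraries, all 16 with a lower mean, and control replicate 1 lay among the stress libraries. Of 14 fibroblast markers 13 were lower, with sums of 119125 to 230601 and 100688 to 125437, and of 12 endothelial markers 12 were lower, with sums of 9372 to 10776 and 8019 to 9083. All stress libraries lay below all control libraries in 4 muscle, 5 fibroblast and 7 endothelial markers (12.3% of all genes tested). Among markers tested, 8 of 12 macrophage, 10 of 12 T and NK cell, 3 of 3 adipocyte and 3 of 5 erythroid ones were lower. Stress replicate 3 also had the lowest macrophage mean (10.99). The epithelial sums were 42152 to 46673 in control and 41940 to 46673 in stress libraries. With the muscle covariate the 20 genes from uptake to pyruvate had 19 higher and a median of 0.18, and with the neutrophil covariate 16 higher and a median of 0.13. The neutrophil fit cannot separate its markers from the group, since their mean did not overlap between groups. The part of these cells in the differences was not tested beyond these fits.

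**Figure D4:**
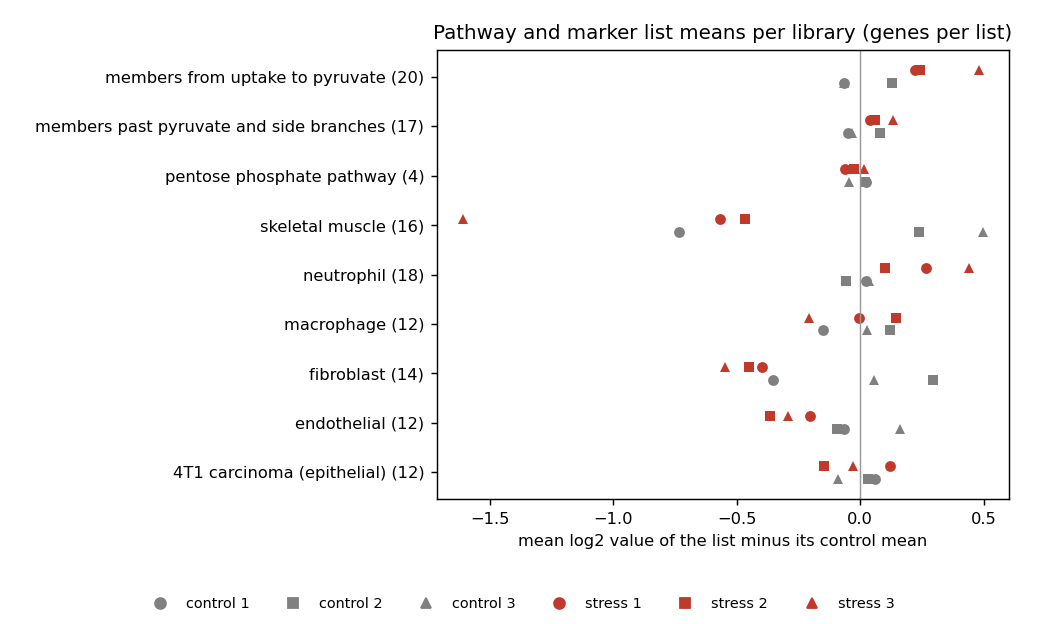
Mean log2 value of each list minus its mean over the 3 control libraries (x axis), for glycolytic lists and for markers of cell types (y axis, number of genes in brackets); grey symbols are control and red symbols stress libraries. The uptake to pyruvate and neutrophil means are higher in all 3 stress libraries than in any control library, the endothelial mean is lower, and control replicate 1 lies among the stress libraries in muscle markers.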

How the data were processed

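Tumour mRNA was measured in 3 control and 3 stress libraries, whose group and number come from their titles. The 6 miRNA libraries of the series were not used here. Per the submitters' processing notes, bcl2fastq, kallisto 0.46.1 and the build mm10 were used; the step from kallisto's estimates to the table is not stated by any label or header. The deposited values are on a log scale, taken as log2, although the table is named as raw counts. They are fractional and vary little where they are low, so differences of weakly expressed genes may be understated. No counts accompany them, so the depth is unknown, and no count model was run.

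Of 35453 rows, 12658 at 0 in all libraries and 26 named by a calendar date were left out. The remaining 22769 genes, 22169 with a symbol in GENCODE M21, were filtered to 14098 with a mean of at least 4. Stress was compared with control by limma 3.58.1 in R 4.3.3 (lmFit, eBayes with trend and robust estimation), two-sided, without covariates, with Benjamini-Hochberg adjustment over all genes tested and a threshold of 0.05. The fit was tested on simulated data. Isoform pairs were compared by exact permutation tests.

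The genes, lists, pairs and tests were chosen with earlier results of these data known. Every gene of the set is named; library values are given for up to 3 genes per step with the smallest p and for pairs apart, and of other lists up to 12 genes with an unadjusted p under 0.05, or up to 3 regulators. Values of some further genes were added. Alternatives were other filters (none, at least 6), quantile normalization, median centring, no variance trend, muscle or neutrophil markers as covariates, the replicate number as a block, and each library left out.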

Additional observations from a re-analysis of the deposited data

How the results depend on the processing

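No gene of the set passed an adjusted p under 0.05 in any alternative run; the smallest was 0.0520 for Pfkfb3 with a minimum mean of 6. Direction was the same in all 14 alternatives for 28 of 37 genes. The other filters, the fit without a variance trend and the replicate block leave each difference unchanged, so direction could not turn there. Median centring moved the median over all genes by only 0.00038. Genes called over the whole table numbered 5, and 11 with a minimum mean of 6, 8 after quantile normalization, 2 without a variance trend, 0 with the muscle covariate, 0 with the neutrophil covariate, 0 with the replicate block and 0 to 5 without single libraries. The count of 15 higher genes at an unadjusted p under 0.05 became 5 with the muscle covariate (3.94% of all genes) and 3 with the neutrophil covariate (4.53%). It was 8 to 21 without single libraries, where 5.37% to 8.24% of all genes were higher at that p. The count of 2 lower genes became 1 without a filter (6.38% of all genes) and 1 without a variance trend (9.20%). It became 0 with the muscle covariate (4.42%), 0 with the neutrophil covariate (3.81%) and 0 with the replicate block (8.19%). Without single libraries it was 0 to 1, where 6.07% to 9.39% of all genes were lower at that p. The 1 was Pfkm without control replicate 1, Ldhb without control replicate 2 and Taldo1 without stress replicate 1. Without single libraries, genes with groups apart ran from 14 to 25 (higher) and from 2 to 4 (lower), counts that leaving out a library cannot lower. Of all genes tested, 15.4% to 18.5% were then apart and higher and 15.6% to 18.6% apart and lower. Quantile normalization gave 10 and 2 (12% and 12.1% of all genes). Leaving out 1 library moved the difference by over 1.5 times in 25 of 37 genes, and the median difference ran from 0.11 to 0.27; it was 0.084 with the neutrophil covariate. The cause of these changes was not tested.

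Signs turned with the muscle covariate for Pfkm (0.0086), Pdk3 (-0.032), Pdha1 (0.0025) and Tkt (-0.028), and with the neutrophil covariate for Gapdh (-0.12), Pgk1 (-0.015), Pdk3 (-0.0093), Pdha1 (0.022) and Tkt (-0.091). Without single libraries they turned within -0.095 to 0.032 for Pfkfb4, -0.042 to 0.077 for Pdk3, -0.047 to 0.079 for Pdk2, -0.028 to 0.030 for Pdha1 and -0.042 to 0.0073 for Slc16a1. Among ratios this held within -0.072 to 0.075 for Aldoc/Aldoa, -0.11 to 0.083 for Pdk3/Pdk2 and -0.23 to 0.0022 for Pfkfb4/Pfkfb2.

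Libraries with the same number share only that number: their deviations correlated by -0.079, 0.082 and -0.018 for numbers 1 to 3 across genes, and not every library correlated best with its own number. The replicate block left 12 higher genes at an unadjusted p under 0.05 in limma's test, where 8.14% of all genes were higher at that p. It left 0 called genes over the table. The median difference of all 37 genes stayed at 0.20, which a block cannot change here. Depth is unknown, so what it limits cannot be given.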
